A study of Sus scrofa with 24 samples.

Results

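The cytosolic heat shock proteins and their J-domain cochaperones were followed in the longissimus dorsi (LD) muscle of male pigs, as all rows of the expression table whose Ensembl pig gene ID carries a symbol beginning with HSPA, HSPB, HSPD, HSPE, HSPH, HSP90 or DNAJ, or with CCT or BAG and a digit, together with STIP1 and HSF1. HSPA5 and HSP90B1, the main HSP70 and HSP90 of the endoplasmic reticulum, were left out. The rule gave 67 members with 66 symbols among the 22861 genes of the table, namely 6 of the HSP70 family, 3 HSP110, 2 HSP90, 6 small HSP, 2 mitochondrial chaperonin, 7 CCT, 4 DNAJA, 9 DNAJB, 21 DNAJC and 3 BAG members and 4 others (HSPBP1, HSPBAP1, STIP1 and HSF1). The rule works on symbols and not on place in the cell, so some members are not cytosolic: HSPA9, HSPD1, HSPE1, DNAJA3, DNAJC11 and DNAJC19 belong to mitochondria, and HSPA13, DNAJB9, DNAJB11, DNAJC1, DNAJC3 and DNAJC10 to the endoplasmic reticulum.

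Chaperones hold and fold other proteins. HSP70 binds short stretches of unfolded protein and spends ATP in cycles that J-domain proteins (DNAJ) start and that HSP110 and BAG proteins restart by exchanging the nucleotide. HSP90 acts later on nearly folded clients, which STIP1 passes on from HSP70, the ring-shaped CCT complex folds actin and tubulin, small HSPs keep unfolding proteins soluble, and HSF1 is the transcription factor that switches many of these genes on under heat and other protein damage. In muscle, BAG3, HSPB8 and HSC70 (HSPA8) take part in clearing damaged filament proteins.

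RNA was sequenced from 24 animals, 1 library each: 6 pure Iberian (IB) and 6 Iberian x Duroc (IBxDU) newborns, sampled at birth (postnatal day 1 in the labels), and 6 IB and 6 IBxDU pigs at 4 months. All dams were Iberian, the sires were Iberian or Duroc boars, and the pigs of both types grew on 1 commercial diet given freely to 4 months. The paper also states that the growing pigs were fasted before slaughter, which cannot be told apart from age here. Newborn litters were fewer than the newborns of each type, so that some were littermates, pigs of 4 months could share a litter too, and the p-values treat the animals as independent. Libraries are named by genetic type and animal number.

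Library totals were 20.0 to 35.9 M, counted as reads or as read pairs. In 8 libraries 99.3 to 99.5% of the total lay in listed genes and in the other 16 it was 88 to 96.2%; what set the 2 kinds of library apart is not given in the sources used here. The higher share was found in 1 IB (503) and 4 IBxDU newborns (402, 412, 425 and 427) and in 1 IB (903) and 2 IBxDU pigs (702 and 732) at 4 months, so that it was unevenly spread between the genetic types at birth. Markers of skeletal muscle (ACTA1, TNNC2 and DES) summed to 25692 to 74010 scaled RPKM at birth and 80373 to 281643 at 4 months. In whole muscle, fewer cells of a type and less RNA per cell cannot be told apart. Levels are given as scaled RPKM, reads per length of transcript and size of library, brought to 1 scale over the 24 libraries, and differences as log2(scaled RPKM + 0.1) with the standard error (SE) of limma. A member is said to be called when p was at most 0.01 and the difference at least 1.5-fold, the limits used by the study. Of the 67 members, 59 passed a mean of 0.5 RPKM in at least 1 compared group in every comparison, and the other 8 (CCT6B, CCT8L2, DNAJB13, DNAJC22, DNAJC5B, DNAJC6, DNAJC9 and HSPB9) stayed below it.

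The most abundant members by mean over the 24 libraries were HSPB1 (2 rows, 890 and 891 scaled RPKM), HSPA8 (733), HSPB8 (653), HSP90AA1 (363) and HSPE1 (331). HSPA8 encodes the constitutive HSP70, HSP90AA1 the inducible form of HSP90, and HSPE1 the lid of the mitochondrial chaperonin. The leading members of the remaining subfamilies were STIP1 (129), BAG3 (128), CCT7 (116), DNAJA4 (75.6), DNAJB5 (58.2), DNAJC7 (52.4) and, for HSP110, HSPA4 (32.4). HSPB1 stands in the table under ENSSSCG00000024482 and ENSSSCG00000028568. The 2 rows differed by at most 1.03-fold in 19 libraries and by 1.98- to 2.04-fold in the other 5, with either row the larger, so how reads were shared between them is uncertain and their sum is given as well.

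At birth a minority of the chaperones was called higher in IBxDU than in IB muscle. Of 59 members, 12 were called higher in IBxDU and 0 lower, while 1.85% of all 12290 genes tested were called higher and 2.36% lower. HSPA4L, HSPH1, HSPA2 and DNAJA1 differed most, and none of the HSP90, DNAJB or BAG members was called. The difference was above 0 for 47 of 59 members (47.7% of all genes), 27 were higher and 1 lower at an unadjusted p under 0.05 (8.73% and 10.0% of all genes), and the median difference was 0.39 over the members and -0.02 over all genes. None passed a Benjamini-Hochberg adjusted p under 0.05 in limma, where 0.00% of all genes did, and the adjusted p of the 12 called members lay between 0.102 and 0.166. When all 4 groups shared 1 estimate of the spread, 16 members were called higher and 0 lower (2.87% and 3.21% of all genes), and 11 passed an adjusted p under 0.05 (1.24% and 1.62% of all genes higher and lower). The shared estimate includes the pigs of 4 months, in which these members varied less. Their median within-group SD was 0.24 in IB and 0.32 in IBxDU pigs there, against 0.44 in IBxDU newborns. It can therefore be too small for the newborns, and the p-values of this fit too low.

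**Figure D1:**
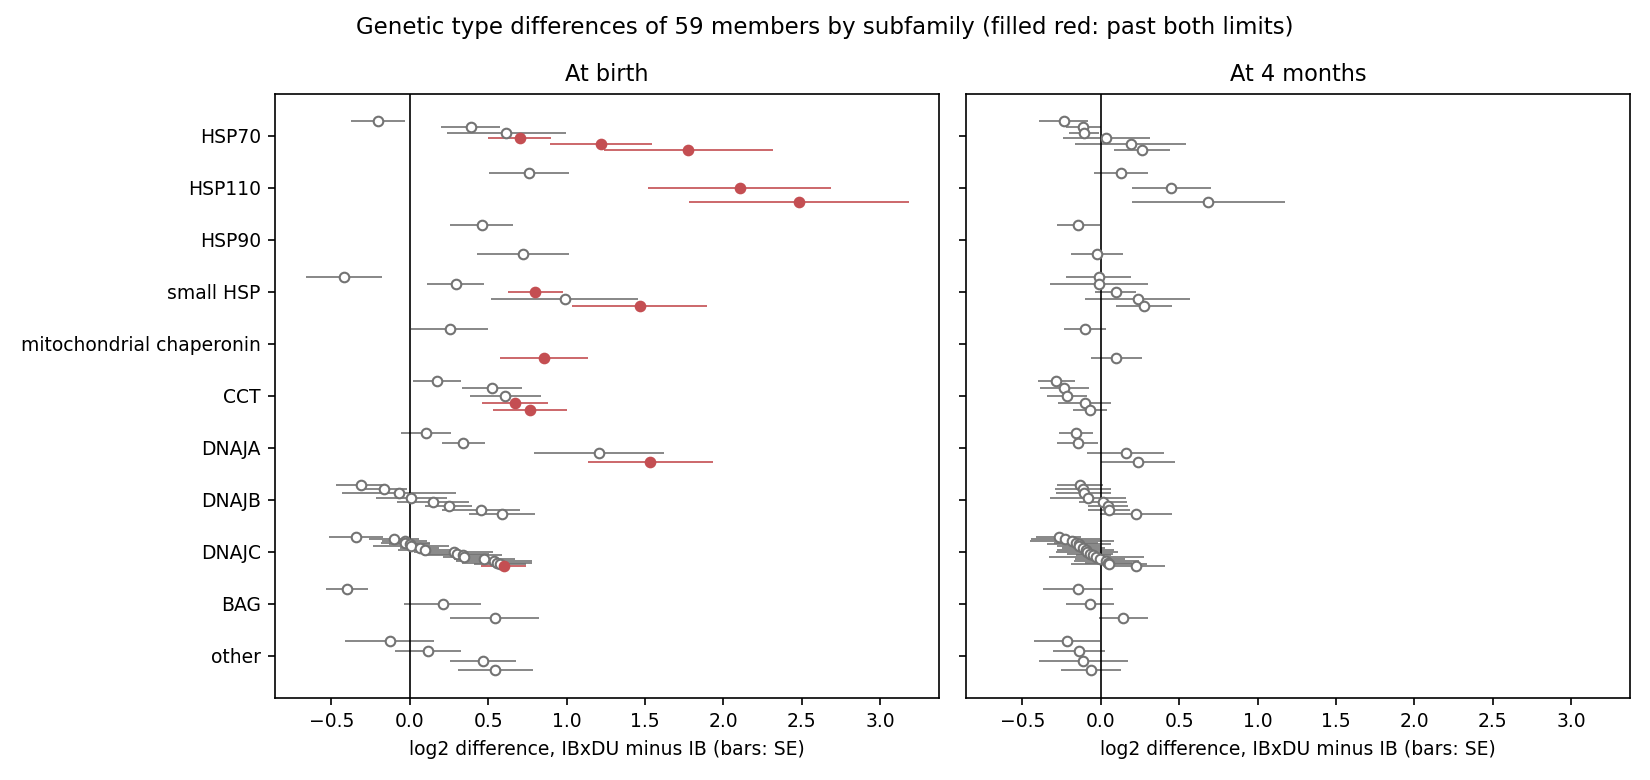
Log2 difference between IBxDU and IB (horizontal axis, bars are SE) of each of the 59 members tested, ordered by subfamily, at birth (left) and at 4 months (right), 6 against 6 libraries each. Filled red points were called: 12 at birth, all to the right of 0, and 0 at 4 months.

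In the HSP110 family, which exchanges the nucleotide of HSP70, HSPH1 (ENSSSCG00000009334) ranged from 3.82 to 11.8 scaled RPKM with a median of 5.65 in the 6 IB newborns and from 6.38 to 84.2 with a median of 35.6 in the 6 IBxDU newborns. The difference was 2.10 ± 0.58 (SE), or 4.30-fold. The groups overlapped: IBxDU 425, 426, 427 and 429 lay above every IB newborn, and IBxDU 402 (10.4) and 412 (6.38) did not. HSPA4, the common HSP110 of most cells, had medians of 19.4 in IB and 34.9 in IBxDU newborns and a difference of 0.76 ± 0.26, just outside the limit on p (adjusted p = 0.174 in limma).

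HSPA4L (ENSSSCG00000009077), an HSP110 relative best known from testis, had the largest difference, 2.48 ± 0.70 or 5.58-fold, at low levels. It ranged from 0.0875 to 3.85 scaled RPKM with a median of 0.242 in IB newborns and from 0.836 to 6.32 with a median of 3.45 in IBxDU newborns. Its order followed the kind of library: across both ages it lay between 1.67 and 6.32 in the 8 libraries with the higher share and between 0.0875 and 0.862 in the other 16, with no overlap. It was the only one of the 59 members for which the 2 kinds did not overlap, and among the 11370 genes with a mean over 0.5 scaled RPKM 2.97% were higher in all 8 of those libraries. IB 503 alone stood at 3.85 among IB newborns, the next being 0.335. In a fit that also held the kind of library the difference was 1.09 ± 0.32, and among the lower-share libraries (5 IB and 2 IBxDU) it was 1.61 ± 0.38; it was called in both.

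Among the HSP70 members, 3 of 6 were called higher in IBxDU newborns. HSPA2 (ENSSSCG00000002274), an HSP70 that is abundant in testis and also made in other tissues, ranged from 12.8 to 25.8 scaled RPKM in IB newborns with a median of 16.9 and from 14.1 to 161 in IBxDU newborns with a median of 84.2. Its difference was 1.78 ± 0.54, and again IBxDU 402 (22.5) and 412 (14.1) lay within the range of IB. HSPA8 (ENSSSCG00000015140) ranged from 195 to 398 with a median of 294 in IB and from 277 to 1271 with a median of 756 in IBxDU newborns, a difference of 1.22 ± 0.33, and 5 of 6 IBxDU newborns lay above every IB newborn. HSPA14, which acts at the ribosome on new chains, differed by 0.70 ± 0.20 with medians of 9.90 and 18.5. Reads of HSPA2 and HSPA8 may be shared with other HSP70 genes of similar sequence. The remaining 3 were not called: HSPA13 (0.62 ± 0.38), HSPA9 (0.39 ± 0.19) and HSPA12B (-0.20 ± 0.17).

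**Figure D2:**
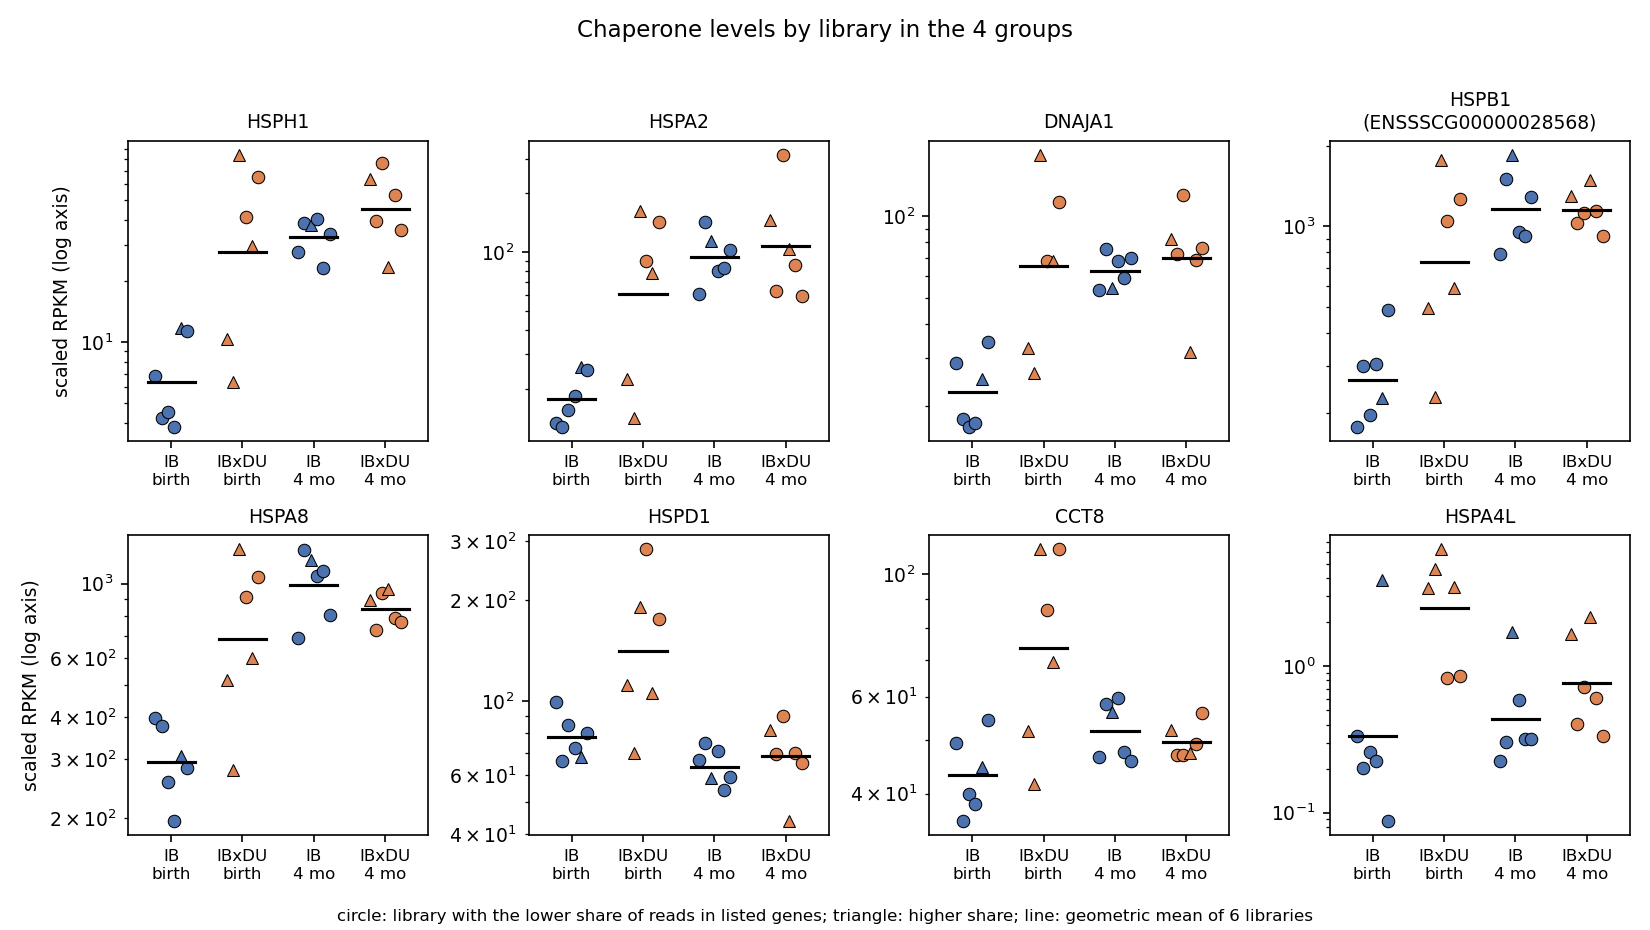
Scaled RPKM on a logarithmic axis of 8 members in the 24 libraries, with 6 points per group and a line at the geometric mean; triangles mark the 8 libraries with the higher share of reads in listed genes. In the first 7 panels several IBxDU newborns sit well above the IB newborns and the lowest, IBxDU 412, sits among them, whereas in the HSPA4L panel every triangle lies above every circle.

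DNAJA1 (ENSSSCG00000011000), a J-domain partner of HSPA8 in the cytosol, ranged from 16.7 to 34.5 scaled RPKM with a median of 21.5 in IB and from 26.5 to 169 with a median of 68.5 in IBxDU newborns. The difference was 1.53 ± 0.40, or 2.90-fold, and 4 of 6 IBxDU newborns exceeded all IB newborns. DNAJA4, the most abundant DNAJA in this muscle, had medians of 55.4 and 155 and a difference of 1.21 ± 0.41, outside the limit on p (adjusted p = 0.179 in limma). DNAJA2 differed by 0.34 ± 0.14, and the mitochondrial DNAJA3 by 0.10 ± 0.16.

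The small HSPs did not move as a block. The HSPB1 row ENSSSCG00000028568 had medians of 264 in IB and 817 in IBxDU newborns, with 5 of 6 IBxDU newborns above every IB newborn, and was called with a difference of 1.47 ± 0.43. The row ENSSSCG00000024482 was not, at 0.99 ± 0.47 and medians of 298 and 557. The sum of both, an alternative chosen after the data were seen, ranged from 350.3 to 970.7 in IB and from 463.5 to 3550 in IBxDU newborns, a difference of 1.24 ± 0.43 (two-sided exact permutation p = 0.0346), and the HSPB1 call was lost when the rows were added. HSPB8 (0.29 ± 0.18) and HSPB6 (-0.42 ± 0.25), 2 abundant small HSPs of muscle, were not called. HSPB11 (ENSSSCG00000026264) carries a small HSP symbol but is a part of the transport machinery of cilia in human cells; it ranged from 3.27 to 6.73 in IB and from 7.38 to 9.37 in IBxDU newborns, with no overlap, and differed by 0.80 ± 0.18 (two-sided exact permutation p = 0.00216, the smallest that 6 against 6 allows).

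In the chaperonins, HSPD1 (ENSSSCG00000016077), the barrel of the mitochondrial HSP60 complex, had medians of 76.4 and 144 scaled RPKM and differed by 0.86 ± 0.28, while its lid HSPE1 differed by 0.25 ± 0.24. HSPD1 reached 285 in IBxDU 426 and was 69.9 in IBxDU 412, within the IB range of 66.0 to 99.5. All 5 CCT subunits tested, which form 1 complex with other subunits, lay above 0, and CCT8 (0.77 ± 0.24, medians 42.3 and 77.7) and CCT4 (0.67 ± 0.21, medians 45.8 and 80.5) were called. CCT3 (0.61 ± 0.23), CCT2 (0.52 ± 0.19) and CCT7 (0.18 ± 0.15) were not.

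Both HSP90 members fell short of the limits at birth, HSP90AA1 at 0.72 ± 0.29 with medians of 208 and 327 and HSP90AB1 at 0.46 ± 0.20 with medians of 96.5 and 135. Of 8 DNAJB members 0 were called, with differences from -0.31 to 0.59, and of 17 DNAJC members only DNAJC24, which takes part in making diphthamide, was: its levels did not overlap, from 1.31 to 1.87 in IB and from 2.04 to 2.85 in IBxDU newborns, a difference of 0.60 ± 0.14 (two-sided exact permutation p = 0.00216). HSPB11 and DNAJC24 were the 2 of 59 members with no overlap at birth in favour of IBxDU, against 0.513% of all genes. BAG3, which links HSP70 to small HSPs, stood at 0.54 ± 0.28, BAG1 at 0.21 ± 0.24, STIP1 at 0.55 ± 0.24 and HSF1 at 0.12 ± 0.21. BAG6, which handles tail-anchored and misplaced membrane proteins, was the only member lower in IBxDU at an unadjusted p under 0.05, at -0.40 ± 0.13, below 1.5-fold (two-sided exact permutation p = 0.00433).

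In these members the IBxDU newborns differed among themselves more than the other groups. The median over the 59 members of the within-group SD on the log2 scale was 0.44 in IBxDU newborns, 0.29 in IB newborns, 0.24 in IB and 0.32 in IBxDU pigs at 4 months, and over all genes tested it was 0.37, 0.36, 0.29 and 0.36 in the same order. IBxDU 429 exceeded all 6 IB newborns in 40 of 59 members, IBxDU 425 and 426 in 34 each, IBxDU 427 in 29, IBxDU 402 in 14 and IBxDU 412 in 4. IBxDU 425 was the highest of the 12 newborns in 7 of the 12 called members, and the median over those members of the log2 level relative to the IB newborn mean was 1.74 in it and -0.00 in IBxDU 412. Over all 12290 genes tested, the share above all 6 IB newborns lay between 13.9% (412) and 20.0% (425) in the 6 IBxDU newborns, while over the 59 members it lay between 6.78% (412) and 67.8% (429). Both lower-share libraries, 426 and 429, were among the high ones, and the 2 lowest, 412 and 402, were higher-share libraries, as were 425 and 427. Without IBxDU 412, 22 members were called higher and 0 lower, and 10 passed an adjusted p under 0.05 in limma, but calls were also more over all genes, 3.21% higher and 3.81% lower, with 0.838% and 1.24% at that adjusted p. Without IBxDU 425 or 426 the count fell to 7, without IB 330 or 345 to 6, and without IBxDU 429 it was 8. The share of all genes called higher was 1.03% without 425 and 2.62% without 426. It was 1.33% without IB 330, 1.21% without IB 345 and 2.43% without IBxDU 429, against 1.85% with all libraries. HSPA8, HSPA4L, HSPH1, HSPB11 and DNAJA1 were called in every fit that left out 1 of the 12 libraries. HSPA14 was called in 11 of the 12 fits, DNAJC24 and the HSPB1 row in 7 each, CCT8 in 5, and HSPA2, HSPD1 and CCT4 in 4 each.

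**Figure D3:**
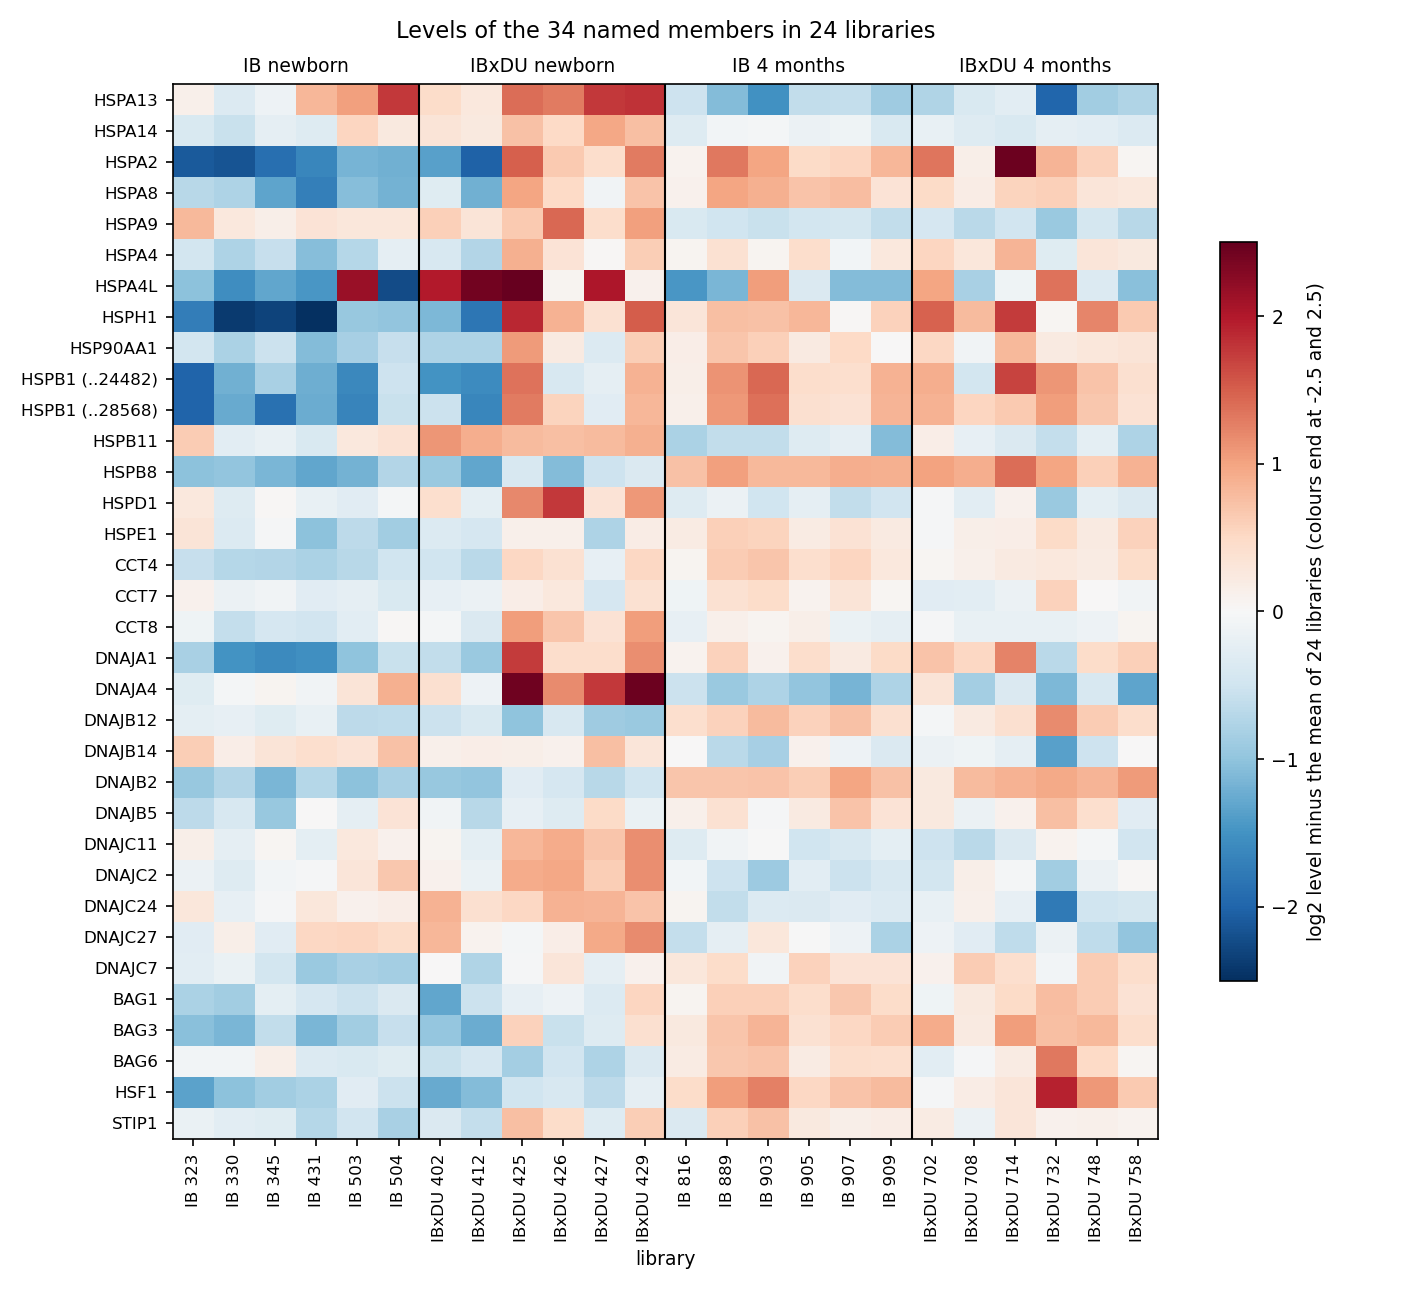
Log2 level of the 34 named members (rows, by subfamily) in each of the 24 libraries (columns, by group), relative to the member's mean over all libraries, with red above and blue below it. HSPA2, HSPA8, HSPH1, HSPB1 and DNAJA1 are blue in the 6 IB newborns and mostly red at 4 months, while among the IBxDU newborns 425 and 429 are red and 412 is blue.

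The kind of library and other cell types were set beside this result. In a fit that also held the kind of library 18 members were called higher and 0 lower, against 2.17% and 2.19% of all genes. Among the lower-share libraries alone (5 IB against 2 IBxDU) 21 were higher and 0 lower, against 4.55% and 3.34% of all genes. At an adjusted p under 0.05, 9 were higher, against 0.665% of all genes. The subset dropped IBxDU 402 and 412, which exceeded all 6 IB newborns in only 14 and 4 of 59 members. It also dropped IBxDU 425 and 427 (34 and 29 members) and kept IBxDU 426 and 429 (34 and 40). The rise in calls in this subset therefore cannot be separated from which animals remained. Of the 12 called members, HSPA14 lost its call in the fit that held the kind of library (0.57 ± 0.23). HSPB11 (0.79 ± 0.29) and DNAJC24 (0.69 ± 0.22) lost theirs among the lower-share libraries. On the deposited values without scaling, which moved the median of all genes from -0.02 to 0.16, 20 members were higher and 0 lower, against 3.73% and 0.838% of all genes. No gene of the lists of markers for muscle, slow fibres, fibroblasts, endothelium, leukocytes, erythroid cells, adipocytes or cartilage was called higher in IBxDU newborns, and 1 of 5 leukocyte genes was lower. The 3 adipocyte genes present, of 6 listed, had a median difference of 1.16, the largest of these lists, but did not agree. Means in IB and IBxDU newborns were 4.66 and 8.79 for PLIN1, 2.27 and 3.66 for CIDEC, and 12.3 and 8.84 for LIPE. The adipocyte sum ranged from 9.05 to 47.7 scaled RPKM in IB (median 14.7) and from 8.79 to 39.9 in IBxDU newborns (median 16.2). The sum of 7 cartilage genes ranged from 1.28 to 9.71 scaled RPKM in IB (median 5.26) and from 1.04 to 27.9 in IBxDU newborns (median 2.99). That of 4 erythroid genes ranged from 380 to 2070 in IB (median 531) and from 161 to 535 in IBxDU newborns (median 294). The part of these cell types in the result was not tested. The sum of 5 immediate early genes, which answer to handling, was 61.9 to 1237 in IB and 88.6 to 223 in IBxDU newborns.

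At 4 months the chaperones of the 2 genetic types were close. Of 59 members, 0 were called in either direction, against 0.997% of 10728 genes higher and 0.419% lower in IBxDU, and the median difference was -0.07 over the members and -0.02 over all genes. At an unadjusted p under 0.05 limma gave 0 members higher and 1 lower, CCT2 at -0.28 ± 0.12, against 4.50% and 4.08% of all genes, and at an adjusted p under 0.05 it gave 0 in either direction, against 0.0746% and 0.0186%. HSPH1 had medians of 36.0 in IB and 46.2 scaled RPKM in IBxDU pigs and a difference of 0.45 ± 0.25, and HSPA8 medians of 1070 and 840 and a difference of -0.24 ± 0.16. DNAJA1 (0.16 ± 0.24), HSPA2 (0.19 ± 0.35), HSPD1 (0.10 ± 0.16), CCT8 (-0.07 ± 0.11), HSF1 (-0.11 ± 0.28) and the 2 HSPB1 rows (-0.01 ± 0.31 and -0.01 ± 0.21) had estimates smaller than their SE. HSPA4L had the largest estimate, 0.69 ± 0.49, and there too the 3 highest of 12 values belonged to the 3 libraries with the higher share. HSPH1 alone passed the limits when IBxDU 732 was left out (0.64 ± 0.21, adjusted p = 0.194 in limma), and the other 11 such fits called 0.

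Whether the genetic types differed in their change with age was tested as an interaction over the 24 libraries. In limma, 0 of 59 members passed an adjusted p under 0.05, as did 0.0241% of 12441 genes; at an unadjusted p under 0.05, 21 members had a larger birth excess in IBxDU and 0 the reverse, against 5.88% and 7.56% of all genes. The estimate was above 0 for 51 of 59 members (47.5% of all genes), with a median of 0.50 against -0.03 over all genes. At p of at most 0.01 and 1.5-fold, 7 members stood out (1.56% of all genes in that direction), led by the HSPB1 row ENSSSCG00000028568 (1.48 ± 0.50), HSPA8 (1.46 ± 0.37) and DNAJA1 (1.38 ± 0.49) and followed by CCT4, CCT8, HSPA14 and CCT2. Among the lower-share libraries alone (5 IB and 2 IBxDU newborns, 5 IB and 4 IBxDU pigs of 4 months) 20 members passed an adjusted p under 0.05. Of all genes 4.21% did so in the same direction and 2.61% in the other. This subset leaves out IBxDU newborns 402 and 412, the lowest of their group over these members. With only IBxDU newborn 412 left out, 6 members passed, against 0.699% and 0.820% of all genes. This comparison uses the same newborns as the one at birth.

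Between the ages, 10 of 59 members were called higher at birth and 17 lower, against 24.5% of 12180 genes higher and 20.9% lower. Both HSPB1 rows are among the 17, so that 1 gene counts there as 2 members. On this scale the share of members lower at birth was above that of all genes and the share higher below it, and the median difference was -0.22 over the members and 0.10 over all genes. At an adjusted p under 0.05 in limma 14 were higher and 23 lower (35.5% and 30.1% of all genes), and the estimate was above 0 for 21 of 59 (55.0% of all genes). The groups did not overlap for 1 member higher at birth and 4 lower (6.88% and 8.65% of all genes). The split rests on the scaling: on the deposited values, where the median of all genes is 0.91, 29 members were higher and 3 lower, against 61.5% and 5.90% of all genes. After quantile normalization 10 were higher and 5 lower, against 21.2% and 19.7%, so that there the share of members lower at birth was below that of all genes. Directions below are relative to the scaled libraries. Cell type markers moved with age as well, to be read beside the 24.5% and 20.9% of all genes. Of those tested, 4 of 5 fibroblast and 2 of 3 erythroid genes were called higher at birth. Called lower were 3 of 3 muscle, 2 of 3 adipocyte and 4 of 5 slow fibre genes, while MYH7, the other slow fibre gene, was called higher. Of 5 leukocyte genes 1 was higher and 2 lower, and 1 of 3 endothelial and 1 of 3 cartilage genes were higher. The part of these cell types in the differences was not tested.

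Among the members lower at birth, HSPB8 (ENSSSCG00000009844), the small HSP that works with BAG3, was lowest relative to 4 months: it ranged from 216 to 418 scaled RPKM at birth and from 808 to 1406 at 4 months, with no overlap, a difference of -1.82 ± 0.12 (adjusted p = 8.16e-13 in limma). DNAJB2, a J-domain protein that passes clients to the proteasome, ranged from 9.10 to 16.4 at birth and from 23.8 to 42.0 at 4 months and differed by -1.54 ± 0.10 (adjusted p = 1.86e-12). HSF1 (ENSSSCG00000005917) ranged from 14.8 to 32.3 at birth and from 37.1 to 143 at 4 months and differed by -1.49 ± 0.18. DNAJB12 (-1.06 ± 0.12), a J-domain protein of the endoplasmic reticulum membrane, did not overlap between the ages either. These 4 were called lower at birth within each genetic type and also after quantile normalization.

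All 3 BAG members were called lower at birth, BAG3 by -1.25 ± 0.18, BAG1 by -0.87 ± 0.15 and BAG6 by -0.74 ± 0.14. The other members called lower were HSPA2 (-1.61 ± 0.41), HSPH1 (-1.53 ± 0.44), HSPB1 (-1.47 ± 0.32 and -1.39 ± 0.31), HSPA8 (-1.02 ± 0.25), HSP90AA1 (-0.71 ± 0.20), DNAJC7 (-0.68 ± 0.14), CCT4 (-0.66 ± 0.15), HSPE1 (-0.62 ± 0.14) and DNAJC10 (-0.60 ± 0.13). Of the 17 members called lower, BAG6, HSP90AA1, DNAJC7, CCT4, HSPE1 and DNAJC10 (0.24) turned above 0 on the deposited values.

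Of the members higher at birth, HSPA13, an HSP70-like protein of the endoplasmic reticulum, ranged from 1.78 to 8.30 scaled RPKM at birth and from 0.509 to 1.89 at 4 months, a difference of 1.71 ± 0.25. HSPA9, the HSP70 of the mitochondrial matrix that also drives protein import, ranged from 155 to 377 at birth and from 73.2 to 108 at 4 months with no overlap, a difference of 1.10 ± 0.12 (adjusted p = 1.15e-08 in limma). HSPD1 (0.67 ± 0.20) and DNAJC11 (0.59 ± 0.15) of the mitochondria were also called, whereas HSPE1 went the other way. DNAJA4 was higher at birth by 1.48 ± 0.29, opposite in sign to DNAJA1 (-0.79 ± 0.32, not called). The remaining calls were HSPB11 (0.95 ± 0.17), DNAJC24 (0.81 ± 0.17), DNAJC27 (0.71 ± 0.17), DNAJB14 (0.70 ± 0.14) and DNAJC2 (0.68 ± 0.17), the last a J-domain protein at the ribosome.

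**Figure D4:**
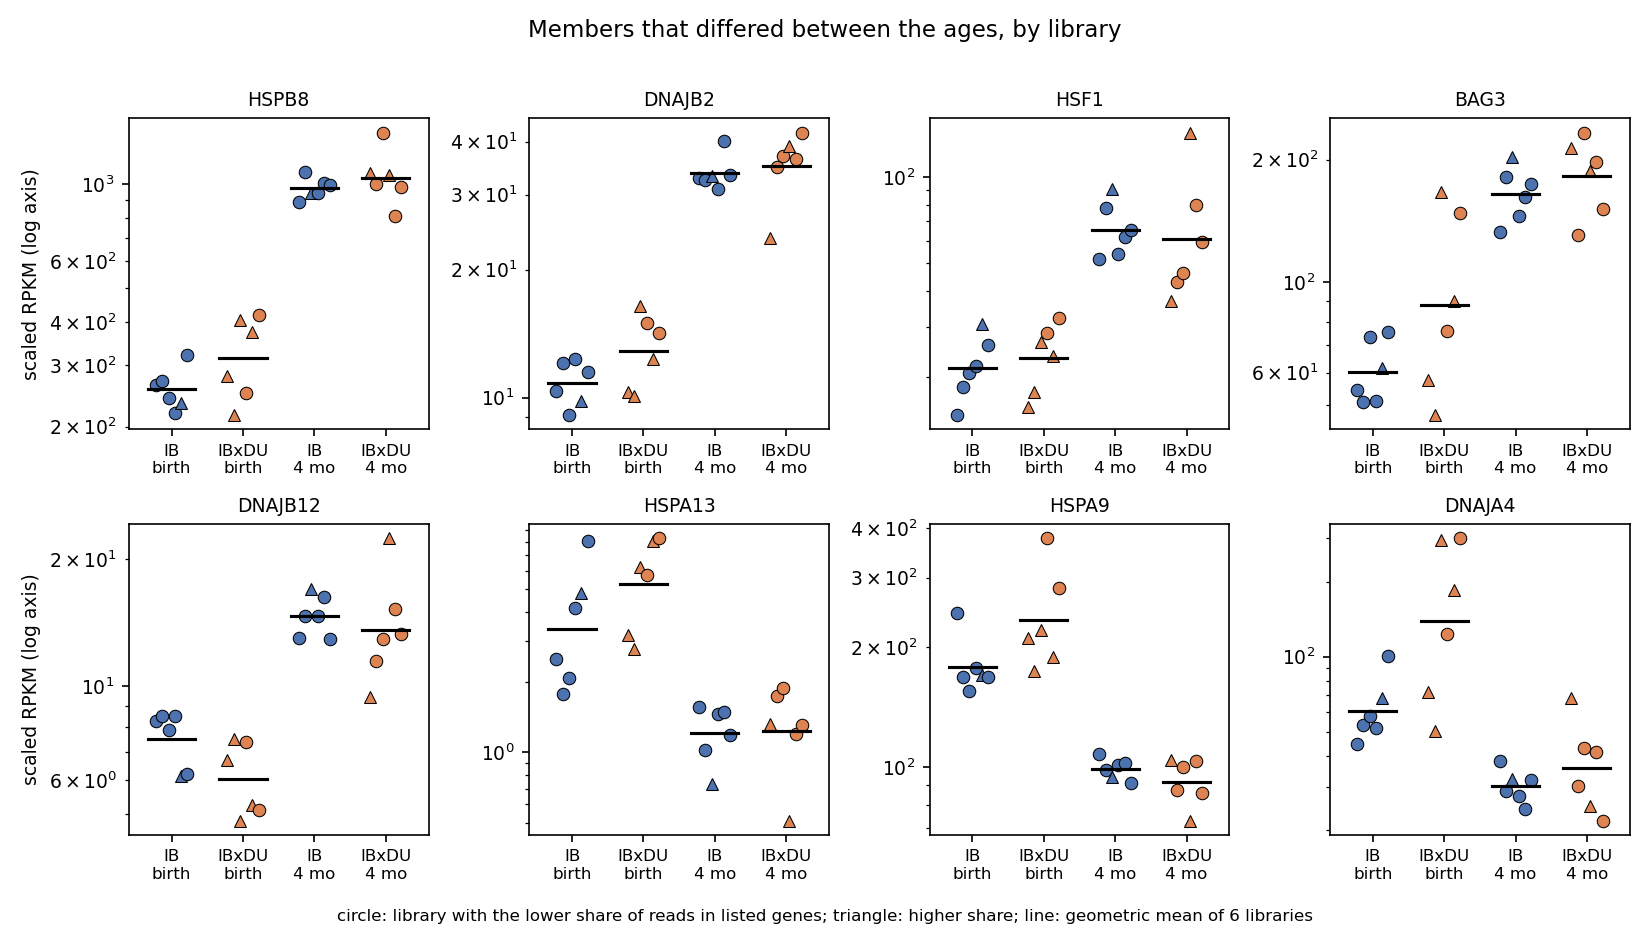
Scaled RPKM on a logarithmic axis of 8 members that were called between birth and 4 months, with 6 points per group and a line at the geometric mean; triangles mark the libraries with the higher share of reads in listed genes. HSPB8, DNAJB2, HSF1 and DNAJB12 are lower and HSPA9 is higher in all 12 newborns than in any of the 12 pigs of 4 months.

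The age comparison was then made within each genetic type. Within IB, 5 members were called higher at birth and 22 lower (22.7% and 20.3% of 11988 genes), with a median of -0.40. The 22 include both HSPB1 rows. Within IBxDU, 12 were higher and 6 lower (19.4% and 19.3% of 12274 genes), with a median of -0.03. Both lists of lower members held 6 members, BAG3, BAG6, DNAJB2, DNAJB12, HSF1 and HSPB8, which is all of the IBxDU list and 6 of 22 of the IB list. Both lists of higher members held 4, DNAJA4, HSPA13, HSPA9 and HSPB11. The same overlaps were not counted over all genes, so whether those of the members are unusual was not tested.

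The 16 others lower in IB included HSPH1, HSPA2, DNAJA1 and HSPA8, which also differed between genetic types at birth, a comparison that shares the 6 IB newborns with this one. HSPA2 was lower at birth by -2.40 ± 0.23 within IB and by -0.81 ± 0.60 within IBxDU, HSPH1 by -2.36 ± 0.28 and -0.70 ± 0.56, HSPA8 by -1.75 ± 0.19 and -0.30 ± 0.30, and DNAJA1 by -1.48 ± 0.19 and -0.10 ± 0.43. The 6 IB newborns lay below all 6 IB pigs of 4 months for each of these 4, while the IBxDU newborns overlapped with the IBxDU pigs of 4 months. Such separation was not particular to these 4. Other members also did not overlap between the ages, within IB and within IBxDU. The share over all genes was not computed for these 2 comparisons, so whether such separation is unusual in the members was not tested. HSPA4L stood at -0.23 ± 0.64 within IB and 1.57 ± 0.55 within IBxDU and was called in neither. The difference between the types was the interaction given above, with adjusted p-values of 0.111 for HSPA8, 0.232 for DNAJA1, 0.287 for HSPH1 and 0.314 for HSPA2, so it was not established for any of them.

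**Figure D5:**
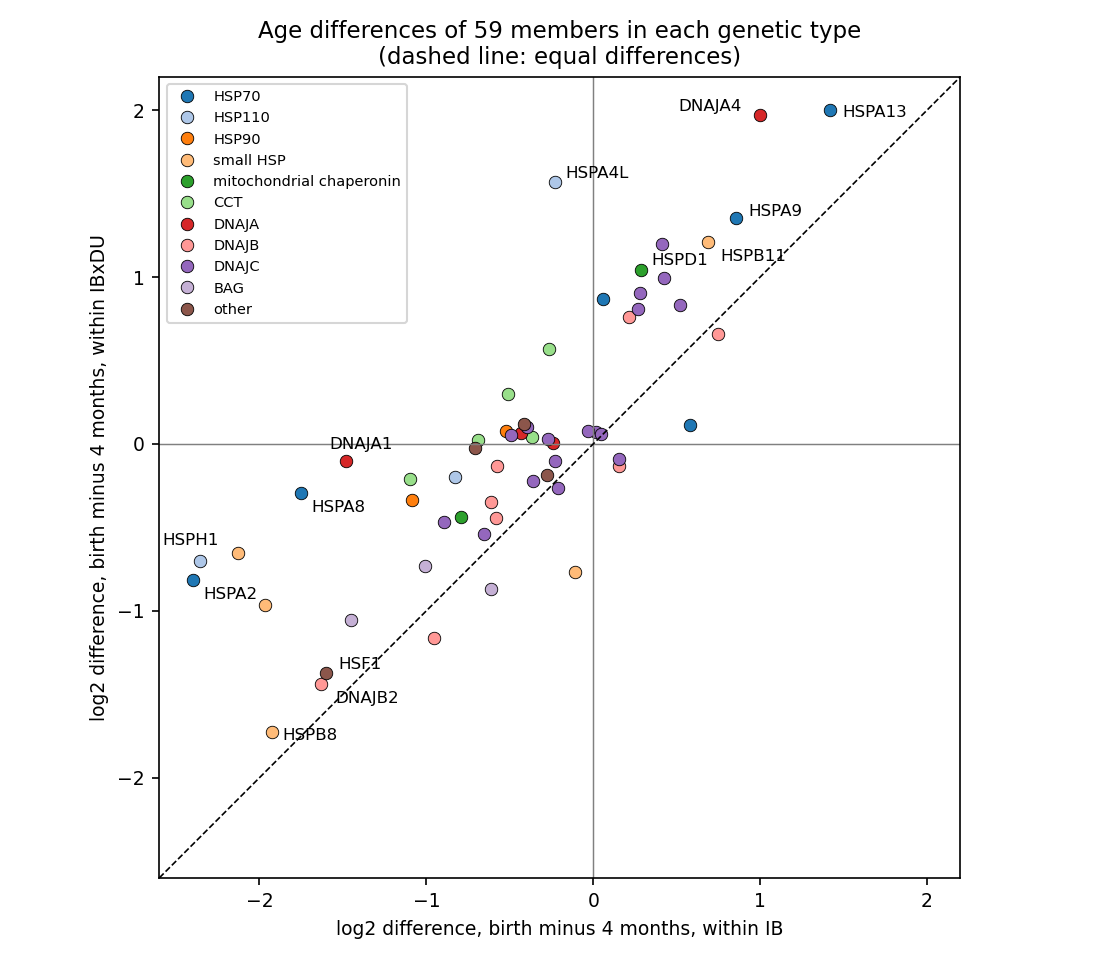
Log2 difference between birth and 4 months of the 59 members within IB (horizontal axis) and within IBxDU (vertical axis), coloured by subfamily, with a dashed line where both are equal. HSPB8, DNAJB2 and HSF1 lie near the line, and HSPA2, HSPH1, HSPA8 and DNAJA1 lie above it.

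Other genes of the same machinery were read from a list of 39, of which 25 were in the table and 24 were tested. At birth 2 were called higher in IBxDU and 0 lower, against 1.85% and 2.36% of all genes. Both were HSP90 partners: CHORDC1 (1.02 ± 0.33, medians 10.4 and 26.1 scaled RPKM) and the cyclophilin PPID (0.73 ± 0.22). Neither passed adjustment in limma (adjusted p = 0.160 for CHORDC1 and 0.141 for PPID). Their two-sided exact permutation p was 0.0303 and 0.0130. CRYAB, a small HSP abundant in muscle, stood at 1.15 ± 0.43 with medians of 361 and 799, and TCP1, a subunit of the CCT complex, at 0.63 ± 0.24, neither called. At 4 months 0 of 24 were called, against 0.997% of all genes higher in IBxDU and 0.419% lower. On the scaled libraries 9 of 24 were called lower at birth than at 4 months and 0 higher, against 20.9% and 24.5% of all genes. The largest differences were those of SMYD1 (-1.54 ± 0.20), a partner of HSP90 in myosin assembly, STUB1 (-1.30 ± 0.13), the ubiquitin ligase of HSP70 clients, and ST13 (-1.10 ± 0.10), an HSP70 cofactor.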

How the data were processed

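The authors sequenced mRNA from LD muscle (2 x 76 bp, HiSeq2000), mapped it to Sscrofa10.2 with CLC Genomics Workbench and deposited 1 table of RPKM values, which their text calls FPKM, for 22861 genes in 24 libraries. They tested exon reads and pooled no replicates. Symbols came from a table of gene names (11450 IDs) and from the tables of the paper (414 more, 5 of them members). Whole reads and library totals were recovered from the RPKM values, for 100% of 17846 genes within 0.001; the totals averaged 27.0 M (SD 4.15) and may count reads or pairs. The 59 tested members rested on 8 or more reads in every library, and precision is limited by 6 animals a group.

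Values were divided by a trimmed mean of log ratios over all 24 libraries (30% trimmed at each end, factors 0.511 to 1.63). Genes were kept if either compared group averaged over 0.5 RPKM and were tested on log2(value + 0.1) with limma 3.58.1 (trend) in R 4.3.3, each genetic type comparison on its own 12 libraries; interactions were called at a Benjamini-Hochberg adjusted p under 0.05. Single-member exact permutation tests were two-sided. The pseudocount makes fold changes of low genes understated. The scripts were tested on simulated data. Alternatives were other scalings, filters, pseudocounts and models, voom on the recovered reads, the kind of library, and each library left out. Named members are those called between genetic types, up to 15 per direction called between ages, the most abundant of each subfamily, and HSPA4L, DNAJA1 and HSF1; others named were chosen after their values were seen. The members and lists were chosen with earlier results of these data known. The files use Sscrofa10.2, so no coordinates or sequences from another assembly are given.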

Additional observations from a re-analysis of the deposited data

Results flagged for a closer look

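In the 34 named members and 4 groups, 136 sets of 6 values were checked for 1 library far from the others, and chance alone flags about 1 in 20. In all, 8 values stood apart in scaled RPKM. HSPA4L was 3.85 in IB newborn 503, the next IB newborn being 0.335. HSPA9 was 245 in IB newborn 323 and DNAJB14 was 3.54 in IBxDU newborn 427, both the highest of their group. At 4 months DNAJB2 was 40.05 in IB 907, the highest, and 23.8 in IBxDU 702, the lowest. IBxDU 732 stood apart at 4 months in 3 members, lowest in DNAJC24 (0.377) and HSPA13 (0.509) and highest in CCT7 (170), and it is a library with the higher share of reads in listed genes and the smallest scaling factor of the 24 (0.511). No member passed an adjusted p under 0.05 in the test of whether the genetic types differed in their change with age.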

How the results depend on the processing

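At birth the count of members called between genetic types, 12, stayed within 1.5 times and always in favour of IBxDU except on deposited values (20), among lower-share libraries (21) and by adjusted p alone (0). Without 1 library the count ran from 6 to 22. In those fits 1.03% to 4.65% of all genes were called higher and 1.51% to 3.81% lower. At 4 months the count was 0 in all alternatives, and 0 to 1 without 1 library. Between ages the count of 27 became 15 after quantile normalization and ran from 24 to 28 without 1 library. In the fits without 1 library 23.9% to 25.5% of all genes were called higher at birth and 20.5% to 21.5% lower. For the interaction the count of 0 became 20 among lower-share libraries and 7 by p of at most 0.01 and 1.5-fold, and ran from 0 to 6 without 1 library. In the fits without 1 library at most 0.699% of all genes passed higher and 0.820% lower. The cause was not tested. Between birth and 4 months the difference turned above 0 for 27 of 59 members on deposited values and for 9 after quantile normalization, where 1 turned below 0. Of the named members these were, on deposited values, CCT4 (0.19), DNAJA1 (0.0545), BAG6 (0.11), HSP90AA1 (0.14), DNAJC7 (0.17), CCT7 (0.69), DNAJB5 (0.37), HSPA4 (0.33), HSPE1 (0.23) and STIP1 (0.48), after quantile normalization CCT7 (0.30) and STIP1 (0.0936), and among lower-share libraries HSPA4L turned below 0 (-0.23). Over the named members, 518 of 587 values under the other alternatives and 864 of 924 without 1 library kept direction and call. No paired analysis was possible because each animal belongs to 1 group and the labels give no litter. Depth limits HSPA4L, which rested on 8 to 997 reads.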
